A study of Homo sapiens with 8 samples.

Results

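The ABC transporter genes described here are the 45 protein-coding genes of GENCODE 44 whose symbol is ABC, a subfamily letter from A to G and a number (of 20033 protein-coding genes on the autosomes, X and Y). Subfamily A has 12 of them, B 9, C 11, D 4, E 1, F 3 and G 5, and they lie on 17 chromosomes. Genes with other symbols were left out by this rule, among them the readthrough gene ABCF2-H2BK1 and the relatives TAP1, TAP2 and CFTR, which are described at the end. The rule reads only the symbol and no measured value.

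Bulk ATAC-seq had been performed on 8 libraries of HepG2, a human liver cancer cell line labelled as hepatocellular carcinoma and as WT genotype, fixed with 0.1, 0.5, 1 or 5% formaldehyde (FA) and then cryopreserved or flash-frozen. ATAC-seq marks accessible chromatin, because the Tn5 transposase inserts its adapters where DNA is free of nucleosomes. The peak list of 1 library was analysed, that of the cryopreserved cells fixed with 0.1% FA, and no replicate of it was analysed, so no value carries an error between replicates and no difference was tested between samples. The list held 60628 peaks, each with a fold enrichment. This is the ratio of fragments at the summit (the highest point of the peak) to the local background, after 1 was added to each. A summit with few fragments therefore cannot have a high fold. Sequencing totals were not analysed here, and depth is given by the fragments at each summit, solved from the deposited values, which ran from 4 to 136 at the members' peaks. Coordinates are those of GRCh38 (hg38). Intervals on shares are exact Clopper-Pearson intervals at a 95% level, and they cover counting error only.

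ABC transporters use the energy of ATP to move lipids, sterols, bile constituents, drugs and metals across membranes. In hepatocytes, members at the canalicular membrane secrete bile salts, phospholipid, cholesterol and conjugated waste into bile, members at the basolateral membrane export conjugates back to blood, and others serve the mitochondria, peroxisomes and lysosomes. Subfamilies E and F lack membrane domains and work at the ribosome. Of 12 hepatocyte marker genes, 10 had a peak at their transcription start site (TSS), beside 61.5% of all protein-coding genes. The exceptions were ALB and AFP. Of 12 markers of blood, endothelial and stromal cells, 0 had one. GC content within 500 bp of the TSS ran from 28.6% (AFP) to 77.1% (CEBPA) among the hepatocyte markers. Its part in these counts was not tested.

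A gene was counted as having a TSS peak when a peak overlapped the 1000 bp to either side of the start of its canonical transcript. By this measure 31 of 45 ABC transporter genes had a TSS peak (68.9%, interval 53.4 to 81.8%), beside 61.5% of all protein-coding genes, a value inside the interval. Assigned peaks were those with a summit in the gene body or within 20 kb of it, and 43 of 45 members had at least 1 (95.6%, interval 84.9 to 99.5%), beside 88.3% of protein-coding genes. By subfamily, a TSS peak was listed for 5 of 12 members of A (41.7%, interval 15.2 to 72.3%), 7 of 9 of B, 8 of 11 of C, 4 of 4 of D, 1 of 1 of E, 3 of 3 of F and 3 of 5 of G. Subfamily A had the lowest share, but its interval also holds the share of all protein-coding genes.

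The members were set side by side in 2 sets, grouped by known role or, for the ABCA6-like cluster, by location. TSS peaks were listed for 28 of 31 members that serve bile, sterol, multidrug, mitochondrial, peroxisomal, lysosomal or ribosomal functions (90.3%). The share over all protein-coding genes was 61.5%. They were listed for 3 of 14 members known from other specialised tissues or belonging to the ABCA6-like cluster of chromosome 17 (21.4%). Median GC content within 500 bp of the TSS was 51.1% in the specialised group and 31.9% in the cluster. Of all coding genes below 55% GC, 29.7% had a TSS peak, and the part of GC content in the contrast was not tested. The role groups were drawn up with earlier results of these data known. The second set joins the 2 groups with the lowest shares, specialised tissues (3 of 10) and the cluster (0 of 4). The size of the contrast therefore follows in part from the grouping, and it is a description only. The plot of TSS folds by member shows the values gene by gene.

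**Figure D1:**
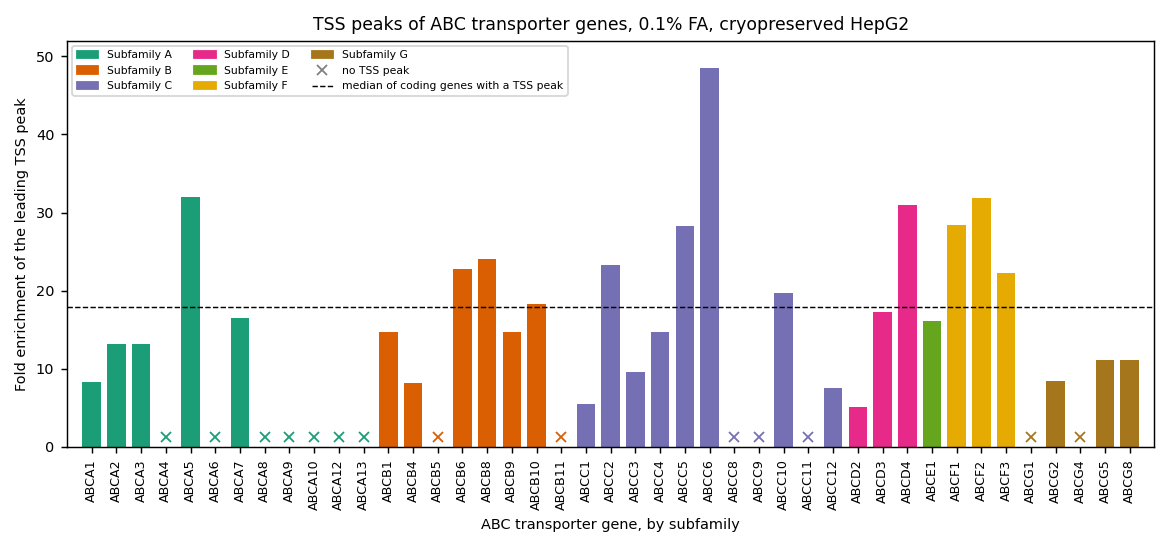
Fold enrichment of the highest peak within 1000 bp of the TSS for 43 of the 45 ABC transporter genes in the cryopreserved HepG2 library fixed with 0.1% FA. Bars are single values without replicates, crosses mark the 14 members with no TSS peak, the dashed line is the median over all coding genes that have a TSS peak (17.9), and 12 of 29 bars exceed it, ABCC6 (48.5) by the most.

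Fold enrichment at the leading TSS peaks of the 31 members ranged from 5.10 to 48.5, with a median of 14.7 (quartiles 10.2 and 23.05). The 12313 coding genes that have a TSS peak had a median of 17.9 (quartiles 13.0 and 22.8). Values here are per gene, and the peak shared by ABCG5 and ABCG8 was entered for each of them. The upper quartile was close to that of coding genes and the lower quartile was below theirs. The members' peaks had a median width of 272 bp, beside 278 bp, and a median of 35 summit fragments, beside 44. Summits lay upstream of the TSS at 28 of 31 members (90.3%, beside 84.0% of coding genes), and 25 of 31 were within 200 bp of it. The subfamily medians of TSS fold were 13.2 for A, 14.7 for B, 17.2 for C, 13.5 for D, 28.4 for F and 11.2 for G, and the single member of E had 16.1.

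Of the 5 canalicular exporters, 4 had a TSS peak. ABCC2, which exports bilirubin glucuronide and other conjugates into bile, had the highest at a fold of 23.3 (59 fragments), on the plus strand at chr10:99782469-99782741. ABCB1, the P-glycoprotein that expels many drugs, reached 14.7 (24 fragments). ABCG2, an exporter of drugs and urate, reached 8.42 (12 fragments), and ABCB4, which moves phosphatidylcholine into bile, 8.24 (13 fragments). Of coding genes with a TSS peak, 7.98% had a lower fold than ABCG2 and 7.28% a lower fold than ABCB4. ABCB11, the bile salt export pump, had no TSS peak, and its nearest summit lay in an intron, 19.0 kb downstream of the start, with a fold of 18.0 (23 fragments).

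ABCC2 and ABCB11 are both liver genes with AT-rich starts, and a TSS peak was listed for only the first of this pair. Their sequences just before the TSS are shown because GC content alone does not separate them: within 500 bp of the TSS it was 38.3% for ABCC2 and 40.0% for ABCB11. ABCB4, whose TSS peak is weak, had 65.9%. Each line gives the 150 bases that end at the base before the TSS, 5′ to 3′ on the gene's strand, and capitals mark matches to a motif in its letters or their reverse complement.
ABCC2, chr10:99782490-99782639, plus strand, no match: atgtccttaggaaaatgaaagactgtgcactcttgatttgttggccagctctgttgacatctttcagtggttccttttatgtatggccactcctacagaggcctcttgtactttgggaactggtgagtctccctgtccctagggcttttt
ABCB11, chr2:169031325-169031474, minus strand, TTGCNNAA of the C/EBP factors: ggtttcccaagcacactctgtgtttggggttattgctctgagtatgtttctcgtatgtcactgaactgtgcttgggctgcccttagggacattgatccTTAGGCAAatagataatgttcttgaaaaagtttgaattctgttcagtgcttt
The ABCC2 stretch holds 0 CpG dinucleotides and the ABCB11 stretch 1. The deepest canalicular TSS peak stood on the stretch without CpG.

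Away from their starts the canalicular genes carried further peaks. ABCG2 had a pair of peaks in a later intron, 50.7 and 51.0 kb downstream of the TSS, with folds of 13.4 (45 fragments) and 17.4 (59 fragments), the second 2.07 times its TSS peak. ABCB4 had a like pair of intron peaks at 10.3 and 11.5 kb, with folds of 14.7 and 15.2. ABCB1 and ABCB4 are neighbours on chromosome 7 and shared a peak of fold 14.4 (chr7:87497552-87497786), 22.0 kb upstream of the ABCB4 start. Another ABCB1 peak, of fold 18.2, lay in its gene body, with its summit 95 bp from the TSS of another gene, RUNDC3B. ABCC2 had further intron peaks 63.4 and 67.0 kb downstream of its TSS, with folds of 9.76 and 15.2.

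All 6 basolateral and multidrug exporters had a TSS peak, and they covered the whole range of strength. ABCC6, which releases ATP from liver cells and whose loss causes the mineralisation disorder pseudoxanthoma elasticum, had a fold of 48.5 (130 fragments, −log10 q of 186) at chr16:16223458-16223663. No other coding gene had a higher TSS fold. ABCC5, an exporter of cyclic nucleotides, reached 28.3 (62 fragments) and ABCC10, an exporter of many drugs, 19.8 (52 fragments). ABCC4, which exports cyclic nucleotides, bile salts and drugs, had 14.7 (30 fragments). ABCC3, which returns bile salts and conjugates to blood, had 9.56 (25 fragments). ABCC1, an exporter of glutathione conjugates and drugs, had 5.54 (10 fragments), and only 0.885% of coding genes with a TSS peak had a lower value. ABCC1 and ABCC6 are neighbours on chromosome 16, so the strongest and the weakest TSS peaks of this role group stood at adjacent genes.

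The ABCC6 start has near-identical copies on the same chromosome, the pseudogenes ABCC6P1 and ABCC6P2, and is shown with them for that reason. Each line is a stretch of 169 bases in the orientation of ABCC6, which for ABCC6 runs from the upstream edge of the peak to the base before the TSS. Capitals mark the bases that differ from ABCC6, and positions count from 1 at the 5′ end of the stretch.
ABCC6, chr16:16223495-16223663, minus strand: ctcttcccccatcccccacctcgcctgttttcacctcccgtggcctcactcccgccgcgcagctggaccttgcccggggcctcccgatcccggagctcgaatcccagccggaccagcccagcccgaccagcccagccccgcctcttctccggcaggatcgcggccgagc
ABCC6P2, chr16:14824730-14824898, minus strand: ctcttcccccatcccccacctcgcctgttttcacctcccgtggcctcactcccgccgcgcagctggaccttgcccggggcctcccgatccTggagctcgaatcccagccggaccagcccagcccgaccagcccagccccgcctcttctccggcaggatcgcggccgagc
ABCC6P1, chr16:18571047-18571215, plus strand: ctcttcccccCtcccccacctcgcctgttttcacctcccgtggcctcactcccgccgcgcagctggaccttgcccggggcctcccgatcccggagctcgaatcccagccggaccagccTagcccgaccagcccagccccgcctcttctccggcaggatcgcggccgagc
ABCC6P2 differs by C91T alone and ABCC6P1 by A11C and C119T. A peak was listed at ABCC6P2 (chr16:14824703-14824901, fold 37.6, 80 fragments), and none at ABCC6P1, where the nearest summit was 5.61 kb from the annotated start of the pseudogene. The 50 bases at the ABCC6 summit occur once in hg38. How reads were divided among the 3 places was not tested.

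Several of these genes also had distant peaks of high fold. ABCC6 had a peak of 41.8 (91 fragments) 9.01 kb upstream, which is the TSS peak of NOMO3. ABCC5 had a peak of 29.6 (71 fragments) in an intron, 29.4 kb downstream, close to the 28.3 of its TSS. ABCC10 had an intron peak of 27.9 (52 fragments) at 9.20 kb, and ABCC4 a peak of 23.3 (37 fragments) 13.2 kb upstream of its start, with matches to the FOXA and C/EBP motifs. ABCC1 carried 13 assigned peaks, the highest of which, 72.6 kb downstream in an intron, had a fold of 17.2, or 3.10 times that of its TSS.

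Among the 5 sterol transporters, 3 had a TSS peak. ABCA1, which loads cholesterol and phospholipid onto apolipoprotein A-I, had a TSS fold of 8.29 (22 fragments). Its intron peaks were higher: 20.2 (56 fragments) at 1.49 kb, 18.5 (35 fragments) at 28.3 kb and 23.1 (78 fragments) at 38.4 kb downstream. The first of these began 1352 bp from the TSS, just outside the window. ABCG1, which passes cholesterol to high-density lipoprotein, had no TSS peak, and its nearest summit was 9.14 kb downstream with a fold of 6.80 (7 fragments). ABCG4, a sterol transporter known mainly from brain, had no TSS peak either, and its nearest summit, 4.00 kb upstream, had a fold of 21.8 (31 fragments). In ABCA1 the higher folds thus lay away from the canonical start. For ABCG1 and ABCG4 no such comparison is possible, since without a TSS peak all their peaks lie away from it.

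ABCG5 and ABCG8, which together form the pump for sterols into bile, are divergent neighbours and share 1 TSS peak of fold 11.2 (23 fragments) at chr2:43838877-43839310. Their starts are separated by the 131 bases below, given on the plus strand, the strand of ABCG8; the summit lay beyond them, 232 bp inside ABCG8.
ABCG5 to ABCG8, chr2:43838840-43838970, plus strand: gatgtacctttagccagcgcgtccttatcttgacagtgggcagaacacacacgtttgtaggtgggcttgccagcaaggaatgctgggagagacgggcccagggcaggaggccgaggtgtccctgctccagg
Beyond the shared peak, ABCG5 had a peak of 19.5 (31 fragments) 30.3 kb downstream, past its end. ABCG8 had exon peaks of 14.1 and 8.39 at 39.1 and 42.8 kb.

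The 4 mitochondrial members all had a TSS peak. ABCB8, a transporter of the inner membrane, had the highest at 24.1 (87 fragments), followed by ABCB6, which is linked to porphyrin transport, at 22.8 (74 fragments). ABCB10, linked to heme synthesis, reached 18.2 (74 fragments). Outside the TSS window, ABCB8 had 8 assigned peaks, ABCB6 5 and ABCB10 3. The peak of highest fold assigned to any member of subfamily B was the 31.7 (136 fragments) found 10.8 kb upstream of ABCB6, at the TSS of ANKZF1 and ATG9A.

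TSS peaks were also listed for all 7 peroxisomal and lysosomal members. ABCA5, an endosomal and lysosomal lipid transporter, had a fold of 32.0 (119 fragments), the second highest of the members and above 98.1% of coding genes with a TSS peak. ABCD4, which releases cobalamin from lysosomes, had 31.0 (74 fragments). ABCD3, which imports branched-chain fatty acids and bile acid precursors into peroxisomes, had 17.3 (48 fragments). ABCB9, a lysosomal peptide transporter, had 14.7, and ABCA2, an endosomal lipid transporter, 13.2. ABCD2, which imports very long chain fatty acids into peroxisomes, had 5.10 (5 fragments), the lowest TSS peak of all members.

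Among the soluble ribosome factors, each of the 4 had a TSS peak, with a median fold of 25.3. ABCF2, an ATP-binding protein without membrane domains, had 31.8 (88 fragments), in a peak that also lies at the start of ABCF2-H2BK1. ABCF1, a translation factor, had 28.4 (78 fragments), and ABCF3, a protein of the ABCF2 kind, 22.3 (54 fragments). ABCE1, the ribosome recycling factor, had 16.1 (35 fragments), shares its peak with the divergent gene ANAPC10, and had no assigned peak outside the window. All 3 members of subfamily F exceeded the median of coding genes.

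Of the 10 members known from specialised tissues, 3 had a TSS peak: ABCA7, a lipid transporter linked to phagocytosis, at 16.5 (43 fragments), ABCA3, which loads lung surfactant lipids, at 13.2 (24 fragments), and ABCC12, of uncertain substrate, at 7.51 (8 fragments). The ABCC12 peak sat near the edge of the window, with its summit 927 bp upstream of the start. Both ABCA12, of the skin barrier, and ABCC9, the sulfonylurea receptor of muscle, had no assigned peak at all, over gene bodies of 207 and 145 kb. ABCA13, a very large lipid transporter gene of 476 kb, had 1, 16.5 kb upstream with a fold of 12.7. ABCB5, known from melanocytes and limbal stem cells, had its nearest summit 50.9 kb downstream, with a fold of 5.95 (6 fragments).

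Lack of a TSS peak did not mean a lack of peaks. ABCA4, the retinoid transporter of photoreceptors, had 14 assigned peaks, of which the highest, 4.92 kb upstream, had a fold of 19.9 (43 fragments), and the nearest, 4.54 kb downstream, 15.2. ABCC11, the apocrine gland transporter that sets earwax type, had 11, including 1 of fold 30.6 (73 fragments) in an intron, 42.8 kb downstream. Its nearest peak, at 3.25 kb with a fold of 22.8, is the TSS peak of LONP2, a peroxisomal protease gene that starts within the first intron. ABCC8, the sulfonylurea receptor of beta cells, had 8, with folds of 18.1 at 3.29 kb and 19.3 at 37.2 kb. Its partner in the potassium channel, KCNJ11, lies just beyond its end and had a TSS peak of 13.6. Of the 14 members that lacked a TSS peak, 4 had a peak within 1000 bp of another annotated transcript start: ABCA4, ABCC8, ABCC11 and ABCG4. This brings the count with a peak at any annotated start to 35 of 45 (77.8%, beside 66.9% of coding genes).

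The intron peak of ABCC11 is printed with that of ABCA1, as examples of strong peaks away from any coding TSS in a gene with no TSS peak and in a gene with a weak TSS peak. Each line holds the 101 bases centred on the summit, on the gene's strand, with a match to TTGCNNAA in capitals.
ABCC11, chr16:48204692-48204792, minus strand: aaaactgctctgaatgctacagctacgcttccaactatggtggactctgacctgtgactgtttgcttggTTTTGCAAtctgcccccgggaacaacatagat
ABCA1, chr9:104889717-104889817, minus strand: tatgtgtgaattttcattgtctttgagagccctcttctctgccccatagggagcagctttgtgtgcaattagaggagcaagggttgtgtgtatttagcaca
Neither stretch is GC-rich: 47.5% of the ABCC11 bases and 44.6% of the ABCA1 bases are G or C.

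The ABCA cluster of chromosome 17 holds 5 genes in a row on the minus strand, from ABCA5 through ABCA10, ABCA6 and ABCA9 to ABCA8. ABCA5 alone had a TSS peak, and the other 4, related lipid transporters of poorly known substrate, had none. Their nearest summits were 4.80 kb away for ABCA10 (fold 7.66), 12.05 kb for ABCA9 (16.7), 12.6 kb for ABCA6 (5.10) and 17.02 kb for ABCA8 (15.1). The GC content within 500 bp of the start was 69.7% at ABCA5 and between 31.6 and 34.8% at the others. The map of the cluster shows peaks between and inside the genes and, at a start of these 5 genes, only that of ABCA5.

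**Figure D2:**
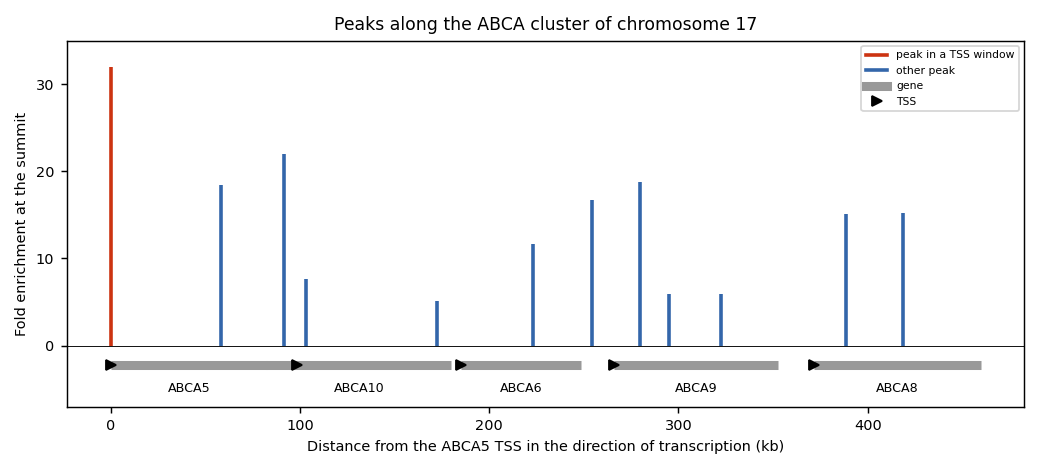
Map of the ABCA cluster of chromosome 17, with the distance from the ABCA5 TSS in kb in the direction of transcription on the x axis and the fold enrichment at each summit on the y axis. Vertical lines are peaks (red within 1000 bp of the TSS of a gene shown, blue elsewhere), grey bars are genes and arrowheads their TSS. The red line at ABCA5 (32.0) is the only peak at the start of a gene shown. The highest of the others (22.0) lies between the ABCA5 and ABCA10 starts, within 1000 bp of the start of the noncoding gene PRO1804.

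The 150 bases before the starts of ABCA5 and ABCA10, the gene next to it, are shown to make that difference in base composition visible, with matches to CCGCCC (the reverse complement of GGGCGG) and to CCAAT of NF-Y in capitals.
ABCA5, chr17:69327134-69327283, minus strand: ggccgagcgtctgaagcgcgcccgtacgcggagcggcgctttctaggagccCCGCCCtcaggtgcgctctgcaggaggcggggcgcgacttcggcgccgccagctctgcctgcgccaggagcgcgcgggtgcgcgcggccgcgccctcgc
ABCA10, chr17:69228825-69228974, minus strand: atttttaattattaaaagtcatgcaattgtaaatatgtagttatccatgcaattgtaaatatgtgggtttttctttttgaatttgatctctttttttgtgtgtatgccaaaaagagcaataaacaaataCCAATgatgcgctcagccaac
The ABCA5 stretch holds 27 CpG dinucleotides and that of ABCA10 1. A match to the SP/KLF letters is present in the first and a match to the NF-Y letters in the second. Between the starts of the pair lay the peak of fold 22.0 (29 fragments) at chr17:69235550-69235718, with a match to the CTCF letters. This peak fell within the reach of both genes, in the ABCA10 gene body before its canonical start and at the start of the noncoding gene PRO1804. In 1 peak shared by ABCA6 and ABCA9 (fold 16.7), the 50 bases at the summit occur 3410 times in hg38. The same check found more than 1 copy at 6 of the 242 peaks assigned to any member, the others being weak peaks of ABCC1 (298 copies), ABCC11 (32), ABCA9 (12), ABCA7 (5) and ABCB9 (5), with folds from 5.25 to 8.56.

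Base composition at the start moved with the TSS peaks throughout the family. Members with a TSS peak had a median GC content of 62.2%, beside 63.8% for coding genes with one, and members lacking it had 42.9%, beside 54.9%. The ratio of observed to expected CpG was 0.753 for members with a TSS peak and 0.201 for those without, beside 0.788 and 0.353 in coding genes. Below 55% GC, 4 of 15 members had a TSS peak, beside 29.7% of coding genes in that range. At or above 55%, 27 of 30 had it, beside 73.6% of coding genes. Among the exceptions, ABCC2, ABCD2 and ABCB1 had a peak below 55%, and ABCG4, ABCC8 and ABCG1 lacked a peak at or above 55%. Subfamily G ran the other way. ABCG1 (70.8%) and ABCG4 (68.0%) lacked a TSS peak, whereas ABCG2 (59.8%), ABCG5 (61.7%) and ABCG8 (57.7%) had one. Subfamilies D, E and F had no member without a TSS peak to compare. Under 45%, where 9.33% of coding genes had a TSS peak, ABCC2 was the only member of 10. Whether GC content bore on the detection of peaks was not tested.

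**Figure D3:**
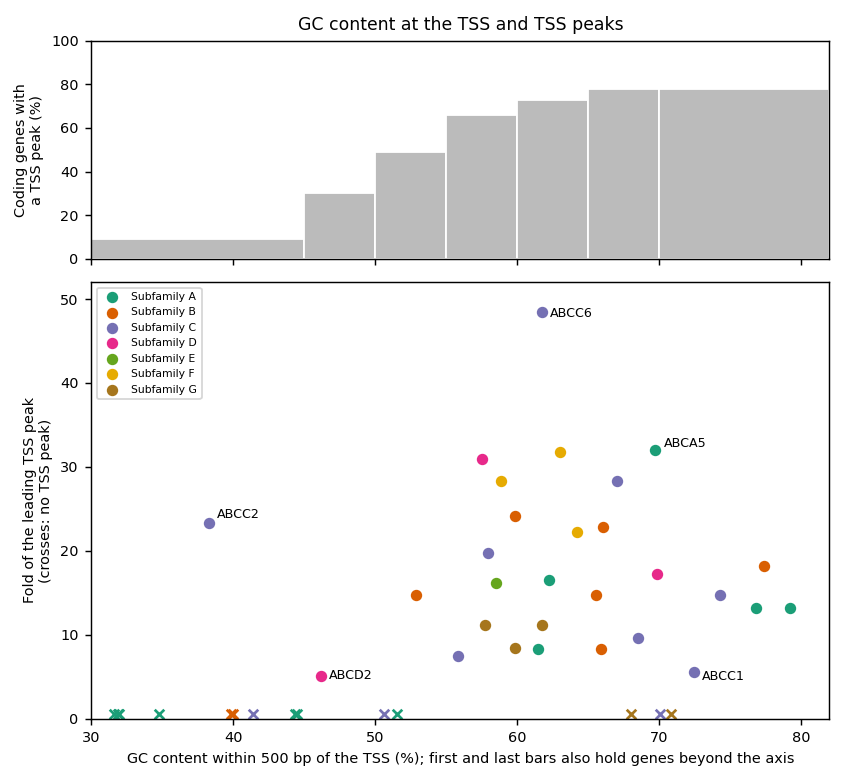
Upper panel: percentage of coding genes having a TSS peak in 7 ranges of GC content within 500 bp of the TSS, rising from 9.33% under 45% GC to 77.7% at 70% or more. Lower panel: the GC content of 43 of the 45 ABC transporter genes on the x axis against the fold enrichment of its highest TSS peak on the y axis, coloured by subfamily, with crosses along the bottom for members lacking a TSS peak, and ABCC2 as the only point below 45% GC.

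HepG2 cells are known to carry extra copies of chromosomes 2, 14, 16, 17 and 20. The 10 members on these chromosomes that had a TSS peak had a median fold of 12.2, beside 19.2 for coding genes there, and the 21 members on other chromosomes had 16.1, beside 17.6. The part of copy number in single values was not tested.

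There were 252 assignments of a peak to a member, made of 242 different peaks, of which 10 were shared by 2 neighbouring members. Introns held 111 of the assignments, TSS windows 14.7% and the 20 kb past the gene's end 21.4%. Among the 242 peaks, 36 lay in the TSS window of a member and 206 outside, and 36 of the latter were at the TSS of another coding gene. The median member had 4 assigned peaks, as had the median coding gene, although the members were longer, at a median of 75.1 kb beside 27.5 kb. Per 100 kb of gene and flanks this came to 4.76 peaks, beside 4.14. Peaks at no annotated TSS had a median fold of 10.7 and 17 summit fragments, beside 9.80 and 14 over all such peaks. The plot of assigned peaks shows how unevenly they were spread over the genes.

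**Figure D4:**
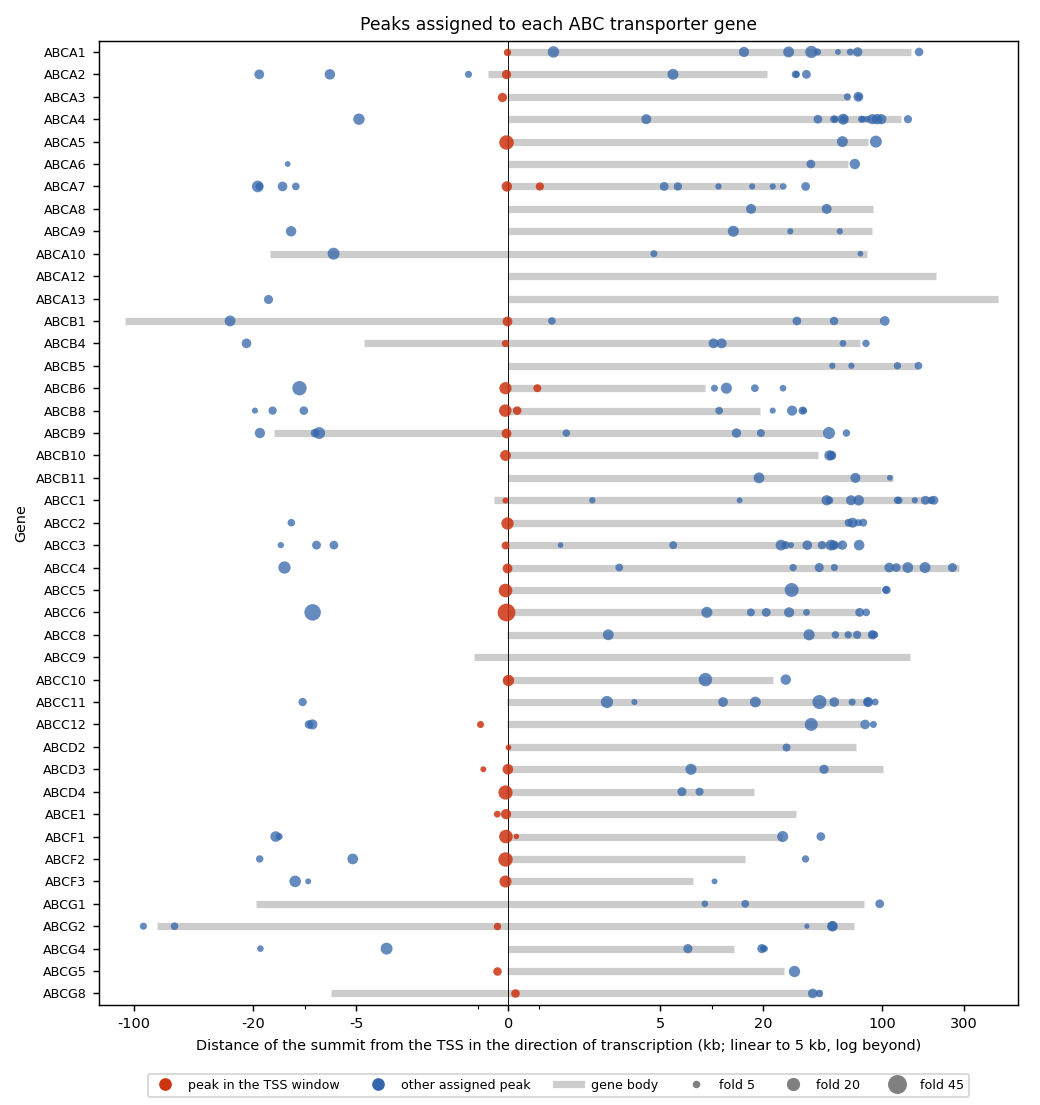
The 246 peaks assigned to the plotted genes by the distance of its summit from the member's TSS (x axis, in kb, positive in the direction of transcription, linear up to 5 kb and logarithmic beyond) for 43 of the 45 ABC transporter genes (y axis). The area of a point is proportional to its fold enrichment, red points lie in the TSS window and blue ones elsewhere, grey bars are gene bodies, ABCC3 has the most points (16), and the rows of ABCA12 and ABCC9 are empty.

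Most peaks were assigned to ABCC3 (16), ABCA4 (14), ABCA7 (13), ABCC1 (13), ABCC4 (11) and ABCC11 (11). ABCA7 is short and lies among other genes, and it had the highest density of all members, 19.8 per 100 kb, above 99.3% of coding genes. ABCC3 combined many peaks with a weak start: its folds were 9.56 at the TSS, 17.8 at 25.5 kb and 17.9 (87 fragments) at 50.0 kb downstream. The highest assigned peak was the TSS peak in 11 of 31 members (35.5%), beside 52.9% of coding genes with a TSS peak. In the other 20 the highest peak lay elsewhere, in 4 of them at the TSS of another coding gene. The members' greater length gives such peaks more room, and its part in this difference was not tested. Peaks of at least 2 times the TSS fold were found in 4 members, ABCA1, ABCC1, ABCC12 and ABCG2, all inside the gene. In ABCC12 this peak had a fold of 25.8 (44 fragments), 38.3 kb downstream in an intron, 3.43 times that at its start. The highest peaks per subfamily were those of ABCA5 (32.0), ABCB6 (31.7), ABCC6 (48.5), ABCD4 (31.0), ABCE1 (16.1), ABCF2 (31.8) and ABCG4 (21.8).

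The letters of 16 transcription factor motifs were searched on both strands within 50 bp of each summit. The most frequent at the members' 242 peaks were GGGCGG of SP/KLF in 46 (19.0%, beside 17.9% of all peaks on chromosomes 1-22, X and Y) and CCAAT of NF-Y in 33 (13.6%, beside 14.3%). CTCF letters (CCA, AG and GGC, each 2 bases apart) were found at 17 (7.02%, beside 6.95%) and NRF2 letters (TGACNNNGC) also at 17 (7.02%, beside 6.21%). AP-1 letters (TGANTCA) were found at 14 (5.79%, beside 5.58%), and those of FOXA (TGTTTAC), a liver pioneer factor, at 13 (5.37%, beside 4.79%). ETS letters (CCGGAAG) were found at 11 (4.55%, beside 3.18%) and C/EBP letters at 11 (4.55%, beside 6.32%). CACGTG of MYC and USF was found at 8 (3.31%, beside 2.81%), letters of HNF1 (GTTAAT and ATT, 1 base apart) at 2 (0.826%, beside 0.766%) and AAGATGGCG of YY1 at 1 (0.413%, beside 0.271%). Split by position, SP/KLF letters were found at 44.4% of the members' TSS peaks, beside 49.4% of all TSS peaks, and at 14.6% of their other peaks, beside 8.59%. ETS letters were at 11.1% of TSS peaks, beside 9.50%, and at 3.40% of the others, beside 1.32%. These shares rest on 36 TSS peaks and 206 others, and no difference was tested. Among the 206, 36 lay at the TSS of another coding gene, whereas the background of other peaks holds none at a coding TSS. The sets of other peaks are therefore unlike. The AP-1 and NRF2 letters can match the same bases in part.

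Letters of the nuclear receptors known to control bile and sterol transport were rare. HNF4A (CAAAGTCCA) had matches at 3 summits (1.24%, beside 1.41% of all peaks), assigned to ABCB5, ABCC4 and ABCG2. The direct repeat bound by LXR, the sterol sensor (GGTCA, 5 bases and again GGTCA), had 1 match, in ABCC4 (0.413%, beside 0.0546%). The inverted repeat of FXR, the bile acid sensor (GGTCA, 1 base and its reverse complement), the SREBP letters (TCACNCCAC) and the NRF1 letters (GCGCA followed by its reverse complement) had 0. The 4 stretches that hold an HNF4A or LXR match are shown as 101 bases centred on the summit, on the gene's strand, with the match in capitals; on the opposite strand the letters read as the reverse complement.
ABCG2 with HNF4A, chr4:88107541-88107641, minus strand: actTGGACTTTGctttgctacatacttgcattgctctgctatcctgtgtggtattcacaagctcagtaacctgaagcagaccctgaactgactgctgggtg
ABCC4 with HNF4A, chr13:95123926-95124026, minus strand: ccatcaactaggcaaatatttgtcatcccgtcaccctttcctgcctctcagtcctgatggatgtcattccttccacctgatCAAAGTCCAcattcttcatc
ABCB5 with HNF4A, chr7:20666529-20666629, plus strand: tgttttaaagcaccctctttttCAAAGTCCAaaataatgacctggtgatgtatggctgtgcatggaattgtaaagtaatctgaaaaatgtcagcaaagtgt
ABCC4 with LXR, chr13:95258718-95258818, minus strand: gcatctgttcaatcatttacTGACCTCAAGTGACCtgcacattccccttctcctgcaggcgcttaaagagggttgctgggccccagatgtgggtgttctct
The ABCG2 stretch belongs to the intron peak of fold 17.4 described above. Those of ABCC4 had folds of 18.4 (33 fragments) and 12.7 (19 fragments), 177 and 42.7 kb downstream of its start. That of ABCB5 had 6 fragments. A match describes the letters present and not a bound factor, and the absence of a match says only that these letters were not within the window.

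RefSeq promoters, running from 250 bases before to 50 after a start, were given for 35 of 45 members, of which 26 had a TSS peak. A member was counted if any of its promoters matched. The shares set beside the members count every promoter singly, so the measures are unlike and no difference was tested. GGGCGG was found in 21 of the 35 (60%, beside 44.95% of all 35116 promoters), and 18 of these 21 members had a TSS peak. NRF2 letters were found in 12 (34.3%, beside 13.3%; 10 with a TSS peak) and CCAAT in 11 (31.4%, beside 34.6%; 8 with a TSS peak). CACGTG was found in 8 (22.9%, beside 7.26%), 6 of them with a TSS peak, and AP-1 letters in 6 (17.1%, beside 7.71%), 3 of them with a TSS peak. ETS and C/EBP letters were each found in 5 (14.3%, beside 10.3% and 10.5%). All 5 with ETS letters had a TSS peak, against 1 of the 5 with C/EBP letters. FOXA letters were found in 3 (8.57%, beside 3.42%) and CTCF letters in 2 (5.71%, beside 2.41%). The start of ABCD4 holds ETS letters and GGGCGG within its last 150 bases before the TSS and is printed with them in capitals.
ABCD4, chr14:74302935-74303084, minus strand, CTTCCGG (the reverse complement of CCGGAAG) and CCGCCC: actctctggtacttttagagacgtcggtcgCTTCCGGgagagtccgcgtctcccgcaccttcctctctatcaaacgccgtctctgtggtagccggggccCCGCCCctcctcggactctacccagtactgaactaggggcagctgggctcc
No promoter of the 35 held the letters of HNF4A, LXR, FXR, SREBP, HNF1, NRF1 or YY1.

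The relatives and regulators of the family were read in the same way. TAP1 and TAP2, which pump peptides for antigen presentation, had TSS peaks of 26.4 and 28.6, and the chloride channel gene CFTR had none. Of 22 genes for factors that regulate ABC transporters, 21 had a TSS peak, beside 61.5% of all protein-coding genes. Their folds ran from 6.59 to 24.7, with a median of 14.4, beside 17.9 for coding genes with a TSS peak. The highest were those of ARNT (24.7), the partner of the dioxin receptor, MTF1 (20.3), a metal sensor, and KEAP1 (20.2), the inhibitor of NRF2. NR1H4 alone lacked a TSS peak, and 8 peaks were assigned to it. It encodes FXR, the bile acid receptor known to drive ABCB11, and a link between the missing TSS peaks of these genes was not tested. With a TSS window of 2500 bp, the count over relatives and regulators together rose from 23 to 24.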

How the data were processed

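Bulk ATAC-seq peaks of 1 HepG2 library (0.1% FA, cryopreserved) were analysed. In the study's pipeline, the authors cut adapters with cutadapt, aligned to GRCh38 by Bowtie2, discarded duplicates using samtools and ran MACS2 on the single library. Per the labels, bcl2fastq and deepTools 3.5.5 were also used. The MACS2 version, and whether read ends were shifted for the Tn5 offset, are not given in the sources used here; such a shift would move summits by a few bases. By their names, the peaks came from an alignment limited to short fragments. The values deposited by the authors are a score of 10 times the −log10 q-value, the fold enrichment (a ratio) at the summit, its −log10 p-value and −log10 q-value, and the summit offset. The other 7 libraries were not analysed here.

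Genes were taken from GENCODE 44 and sequence from hg38. The peak list names chromosomes without the prefix chr, and every peak on a chromosome ended within its length in hg38. Each gene was represented by its canonical transcript. The fragments at a summit follow from the fold and −log10 p-value that were deposited; solving for them gave a whole number within 0.01 for 99.7% of peaks, and other peaks were given none. GC content and CpG ratio were computed within 500 bp of the TSS. Each 50-base summit sequence was counted over hg38 on both strands. The placement of peaks, the fragment solution and the counting of sequences were tested on simulated data. Software was samtools 1.23.1, scipy 1.17.1, pandas 2.3.3, numpy 2.4.6 and matplotlib 3.10.9 under Python 3.11.15.

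The members, role groups, motifs and other gene lists were chosen with earlier results of these data known. Values were given for the 10 members of highest TSS fold, all members of the canalicular, sterol and mitochondrial groups, all members lacking a TSS peak, the 5 members with most peaks (with ties), and the highest peak of each subfamily. Values of some genes and 1 sequence covered by these rules are not reported here, and the figures leave out those genes. Of the regulators, those lacking a TSS peak and the 3 highest were named. With 1 library there was no test between samples. Alternatives were other TSS windows, flanks, motif windows and GC windows, the start of any transcript, stricter −log10 q-values and assignment to the nearest coding TSS.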

Additional observations from a re-analysis of the deposited data

Results flagged for a closer look

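A peak outside the 45 genes was singled out because it lies at the start of a pseudogene, ABCC6P2, which no comparison of the report covers. Its fold enrichment was 37.6 (80 fragments), beside 48.5 (130 fragments) at ABCC6, whose start it matches with 1 difference over 169 bases. Of the 22 other annotated genes with an ABC symbol, 16 of them pseudogenes, 3 had a TSS peak: both annotated forms of ABCC6P2 and the readthrough gene ABCF2-H2BK1. There was no control sample, and how reads were divided between ABCC6 and its copies was not tested.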

How the results depend on the processing

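Of 101 values recomputed under other settings, 76 were labelled as near the main value and 25 as further from it. Of the 25, 18 were among the 32 counts of single motifs. The label was coarse, since the fall from 31 to 21 members given below was among the 76. The count of 31 members with a TSS peak became 30 with a TSS window of 500 bp (ABCC12 was lost), 31 with 2500 bp, 31 by the summit alone, 35 with the start of any transcript, and 30 with a −log10 q of at least 5 (ABCD2 was lost). With a −log10 q of at least 20 it was 21 of 45 (46.7%, beside 50.7% of coding genes). That limit left 5 members of subfamily C and 0 of subfamily G with a TSS peak, and 117 of the 242 different peaks assigned. These peaks numbered 365 within 50 kb, 141 in the gene body alone and 156 where the nearest coding TSS was a member's. Summits with at least 1 of the 16 motifs fell from 144 within 50 bp to 71 within 25 bp. No paired analysis was possible because 1 library was analysed.

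Depth limits the weaker calls, since the peak at ABCD2 rests on 5 fragments and that at ABCC12 on 8. Near the edge of the TSS window, peaks that reached to 811 bp (ABCD3), 844 bp (ABCB6), 860 bp (ABCC12) and 946 bp (ABCA7) were counted, and those that began at 1235 bp (ABCA2), 1352 bp (ABCA1) and 1379 bp (ABCB1) were not. Near the limit of 20 kb, 21 summits lay between 15 and 20 kb from a member and 21 between 20 and 25 kb.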
